A study of Homo sapiens with 10 samples.

Results

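Insulin and the insulin-like growth factors act on cells through a short chain of genes, and 9 of its members were followed here in human beta cells depleted of the splicing factor SRp55: INSR and IGF1R (receptors), IRS1 and IRS2 (docking proteins), PIK3R1 and PIK3CA (the regulatory and the catalytic subunit of PI 3-kinase), AKT1 and AKT2 (kinases) and FOXO1 (a transcription factor that AKT phosphorylates). They were chosen by name as core members of the pathway, with earlier results of these data known. Matching by Ensembl gene ID found all 9 of 9 among 26346 listed genes, with 111 of 155130 listed transcripts. All 9 passed the filter on low values that left 13630 genes for testing.

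EndoC-βH1, an insulin-producing clonal line of human beta cells, was grown on a matrigel and fibronectin coating and given either an siRNA against SRp55, labelled siSR#2, or a control siRNA, labelled siCTL. The SRSF6 gene encodes SRp55, a splicing factor of the serine/arginine-rich (SR) family. PolyA RNA was sequenced from 5 preparations per group, which the series describes as independent, and the series title names survival and function of beta cells as what the splicing network was studied for. The sample titles number the libraries within each group and do not say that equal numbers share a preparation. Comparisons by preparation, or by pair, join libraries of equal number, a pairing taken from these same data. How many of all tested genes go 1 way in 5 of 5 pairs is not given, so such counts are descriptive only. The cells are 1 clonal line, the groups differ in the siRNA, and 1 siRNA sequence stood for the depletion, so an effect of SRp55 loss and another effect of that siRNA cannot be told apart.

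In an insulin-responsive cell, ligand binding activates the receptor tyrosine kinase, which phosphorylates IRS proteins. These recruit PI 3-kinase, whose lipid product brings AKT to the membrane, and active AKT releases the mTOR pathway from its TSC brake and keeps FOXO factors out of the nucleus. Beta cells carry the same receptors as their target tissues, and in mice loss of the insulin receptor or of IRS2 from beta cells impairs secretion or beta cell mass.

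INSR is spliced into 2 forms that differ by exon 11, a cassette of 36 bases that adds 12 codons near the end of the alpha subunit. The form without it, often called INSR-A, binds IGF2 more strongly, and the form with it, INSR-B, prevails in adult liver, muscle and fat. In GRCh38 the exon lies at chr19:7150497-7150532 on the minus strand, at positions 2755 to 2790 of the GENCODE 44 transcript. It is shown because in their coding sequence the 2 forms differ by this stretch alone. Each line gives the transcript 5′ to 3′ with 18 bases of the flanking exons in lower case and exon 11 in capitals, read from the GENCODE 44 transcripts.

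INSR long form: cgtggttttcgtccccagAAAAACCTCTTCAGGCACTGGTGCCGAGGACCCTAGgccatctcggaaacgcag

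INSR short form: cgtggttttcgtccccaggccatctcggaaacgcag

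The siRNA lowered its target in every preparation. SRSF6 was at 24.9 ± 3.78 RPKM in SRp55 siRNA libraries and 98.2 ± 3.24 RPKM in control libraries (SD, n = 5 each), a log2 fold change of -2.08 relative to the median gene (limma adjusted p = 2.0e-05). RPKM is reads per kilobase of transcript and per M reads (M, 10 to the power 6), and a gene's value is the sum over its transcripts. Reads assigned to transcripts numbered 94.7 to 189.8 M in SRp55 siRNA libraries and 61.9 to 159.2 M in control libraries. All 9 beta cell markers listed for a check of the cell type passed the filter, and the transcripts of INS were at 7930 to 11334 RPKM in SRp55 siRNA libraries and 4237 to 12705 RPKM in control libraries. By limma on RPKM 1 of the 9, the zinc transporter gene SLC30A8, was called higher and none lower, beside 3.76% and 1.25% of all tested genes. On estimated reads per M assigned reads (RPM) 1 was called higher and 3 lower, beside 7.3% and 9.87%. On RPKM with the preparation number as a block in the fit 1 was called higher and 3 lower, beside 9.39% and 3.7%. With median-of-ratios scaling of RPKM 1 was called higher and 1 lower, beside 3.02% and 3.72%. Whether beta cell identity differed between the groups was not tested. Among markers of other cell types SST, the somatostatin gene of delta cells, averaged 92.2 ± 58.4 RPKM in SRp55 siRNA libraries and 110 ± 76.5 RPKM in control libraries (SD, n = 5 each). PPY and PRSS1 were listed at 0 in every library, and GCG averaged 0.210 and 0.113 RPKM in SRp55 siRNA and control libraries. CPA1, an acinar marker, averaged 22.2 and 20.9 RPKM, and CD68, a macrophage marker, averaged 41.0 and 41.4 RPKM in SRp55 siRNA and control libraries.

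None of the 9 genes changed by the test across all genes, limma on log2(RPKM + 0.5) with Benjamini-Hochberg adjustment at 0.05, which called 5.02% of all 13630 genes. At an unadjusted p under 0.05 the same fit listed 2 of the 9, AKT2 and FOXO1, against 21.9% of all genes. On RPM in place of RPKM, 17.2% of all genes were called, 7.3% higher and 9.87% lower, and 1 member, INSR, was among the lower ones. With the preparation number as a block, 13.1% were called, 9.39% higher and 3.7% lower, and 1 member, AKT2, was among the higher ones. With median-of-ratios scaling of RPKM, 6.74% were called, 3.02% higher and 3.72% lower, and none of the 9. Each log2 fold change is SRp55 siRNA over control siRNA. The median tested gene itself stood 0.11 higher in the deposited RPKM, so a relative log2 fold change, with that shift taken off, is given for each gene, whereas every p-value refers to the change before it was taken off.

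**Figure D1:**
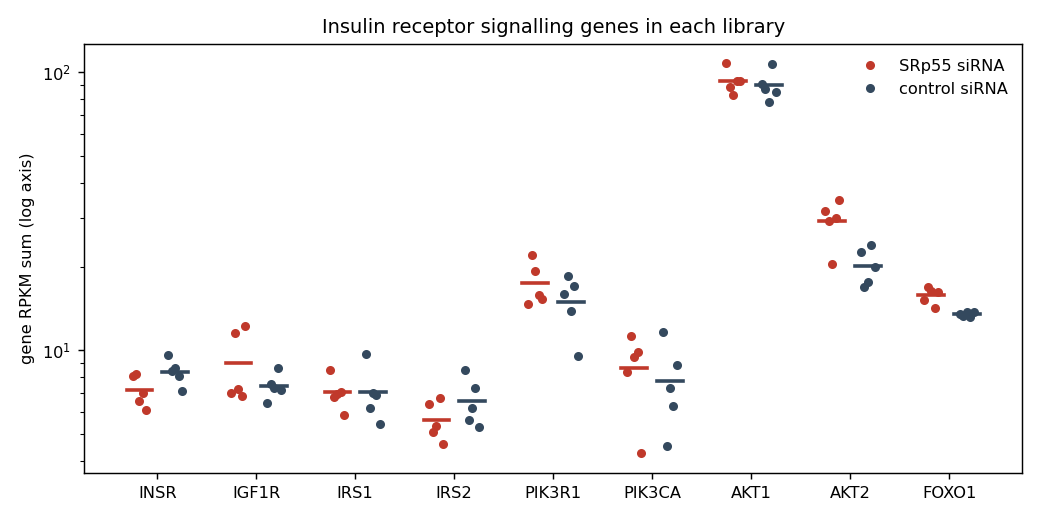
Gene RPKM sum (log axis) of the 9 insulin receptor signalling genes in each of the 5 SRp55 siRNA libraries (left in each pair) and 5 control siRNA libraries (right), with a line at the mean. AKT1, between 82.8 and 107 RPKM in SRp55 siRNA libraries, stands above the other genes, and the groups of FOXO1 do not overlap.

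AKT1 was the most abundant of the 9 in every library, and both receptors, both docking proteins and PIK3CA were the least. By RPKM, which is per length, the order of the means in SRp55 siRNA libraries was AKT1, AKT2, PIK3R1, FOXO1, IGF1R, PIK3CA, INSR, IRS1 and IRS2. In control libraries it was AKT1, AKT2, PIK3R1, FOXO1, INSR, PIK3CA, IGF1R, IRS1 and IRS2. Within each group the ranges of neighbours overlapped, except that AKT1 lay clear above AKT2 and FOXO1 clear above the next gene, so the order of the 5 lowest genes is not resolved.

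INSR (ENSG00000171105.9, GRCh37 chromosome 19, 7112266 to 7294045, minus strand) encodes the insulin receptor. Its level was 8.07, 8.22, 6.56, 7.03 and 6.12 RPKM in SRp55 siRNA libraries 1 to 5, against 9.63, 8.43, 8.66, 8.06 and 7.14 RPKM in control libraries 1 to 5. Each SRp55 siRNA library lay below the control library of its own number, in 5 of 5 pairs of equal number, while the ranges of the groups overlapped. The means were 7.20 ± 0.925 RPKM in SRp55 siRNA libraries and 8.38 ± 0.907 RPKM in control libraries (SD, n = 5 each). The log2 fold change was -0.21 as deposited (SE 0.12) and -0.32 relative to the median gene, with a limma adjusted p of 0.329. The unadjusted 95% interval of the relative value was -0.57 to -0.06, while the unadjusted limma p of the deposited change was 0.0993. In RPM INSR was at 64.7, 74.1, 60.4, 62.7 and 59.2 in SRp55 siRNA libraries, against 86.5, 85.4, 86.8, 72.5 and 75.4 in control libraries. On that scale the relative change came to -0.33 (SE 0.08, limma adjusted p = 0.0153). The sizes are alike on both scales and the call rests on the reads alone; adjusted p was 0.101 with median-of-ratios scaling and 0.105 with the preparation as a block. From bulk RNA, fewer cells making a transcript and less transcript per cell cannot be told apart.

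The models of the 2 INSR forms held most of the gene's RPKM, and the model without exon 11 had the higher RPKM in every library. That model also has the longer 3′ end, a limit given with the shares below. The short form, ENST00000341500.5, was at 6.32, 6.49, 5.12, 5.73 and 4.39 RPKM in SRp55 siRNA libraries, against 7.67, 6.68, 7.05, 6.80 and 5.68 RPKM in control libraries. The long form, ENST00000302850.5, was at 1.16, 0.660, 1.27, 1.08 and 1.21 RPKM in SRp55 siRNA libraries, against 1.07, 1.35, 1.28, 1.03 and 0.991 RPKM in control libraries. The short form was lower than in the control library of equal number in 5 of 5 pairs, and the long form lower in 2 of 5. Neither transcript was called, with limma adjusted p-values of 0.665 for the short and 0.940 for the long form.

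As a share of both forms, the long form made up 15.5%, 9.23%, 19.9%, 15.8% and 21.7% in SRp55 siRNA libraries, against 12.3%, 16.8%, 15.4%, 13.2% and 14.9% in control libraries. The SRp55 siRNA libraries spread on both sides of the controls, with the lowest share in library 2 and the highest in library 5. The means were 16.4% ± 4.80 in SRp55 siRNA libraries and 14.5% ± 1.81 in control libraries (SD, n = 5 each), a difference of 1.92 percentage points (SE 2.29, exact two-sided permutation p = 0.413, smallest possible 0.00794). As a share of estimated reads the long form averaged 9.45% ± 2.95 in SRp55 siRNA libraries and 8.22% ± 1.10 in control libraries (SD, n = 5 each, exact permutation p = 0.405). The test across all genes for a change in transcript usage, limma's diffSplice, gave INSR an adjusted p of 0.989 with a largest shift of 3.15 percentage points. The model of the long form in the files is 4721 bases long and lacks 4372 bases at the 3′ end that the short form of 8954 bases carries, so reads from that shared stretch could be credited to the short form alone. The shares therefore describe the models of the files and are no measure of exon 11 inclusion in molecules.

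**Figure D2:**
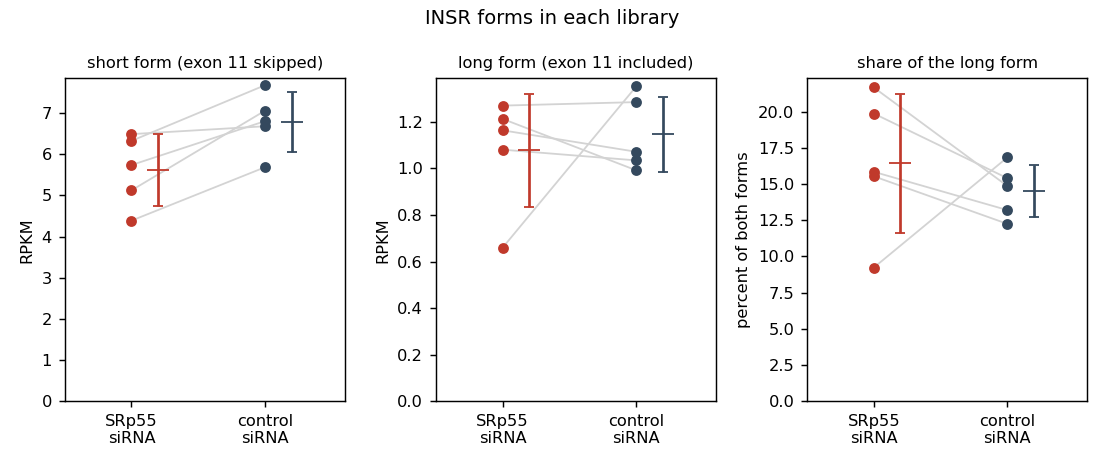
RPKM of the INSR form without exon 11 (left) and with it (middle), and the share of the long form in percent of both (right), in SRp55 siRNA and control siRNA libraries. Grey lines join equal preparation numbers and bars are mean and SD (n = 5 each). The short-form model is lower in each SRp55 siRNA library than in the control library of equal number. The share of the long form, 16.4% and 14.5% on average in SRp55 siRNA and control libraries, overlaps between groups. The models differ at the 3′ end, so the share is no measure of exon 11 inclusion.

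Of 8 genes listed as proteins known to act on splicing of INSR exon 11, none was called by limma on RPKM, and 1 had an unadjusted p under 0.05. Of all tested genes 5.02% were called and 21.9% had such a p. MBNL2 and MBNL1, muscleblind proteins that favour inclusion of the exon, had relative log2 fold changes of 0.20 and 0.23 (limma adjusted p = 0.198 and 0.250). SRSF1, another SR protein that favours inclusion, had one of 0.11 (adjusted p = 0.300). With the preparation as a block, MBNL1 was called higher (limma adjusted p = 0.0283). It was the 1 gene of the 8 called by that fit, which called 9.39% of all tested genes higher and 3.7% lower. The median relative log2 fold change of the 8 was 0.04, and 5 of them lay above the median gene.

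IGF1R (ENSG00000140443.9, chromosome 15, 99192200 to 99507759, plus strand), the receptor for insulin-like growth factors, was at 7.02, 11.5, 7.25, 6.85 and 12.2 RPKM in SRp55 siRNA libraries, against 6.47, 7.54, 7.31, 8.65 and 7.18 RPKM in control libraries. SRp55 siRNA libraries 2 and 5 stood above all others and the remaining ones lay among the controls. Relative to the median gene IGF1R stood at 0.11 on the log2 scale (SE 0.18, limma adjusted p = 0.509). Both full-length models together, ENST00000268035.6 and ENST00000558762.1, summed to 5.83 ± 0.476 RPKM in SRp55 siRNA libraries and 5.52 ± 0.335 RPKM in control libraries (SD, n = 5 each). Models under 1000 bases held 4.57% to 47.3% of the gene's RPKM in SRp55 siRNA libraries and 5.70% to 36.6% in control libraries, but 1.87% of its reads on average over all libraries. In SRp55 siRNA library 3 a model of 1034 bases, ENST00000558898.1, held a further 1.45 RPKM.

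IRS2 (ENSG00000185950.7, chromosome 13, 110406184 to 110438915, minus strand), the docking protein that sustains beta cell mass in mice, has 1 transcript in the files. It was at 6.39, 5.09, 5.33, 6.74 and 4.62 RPKM in SRp55 siRNA libraries, against 8.53, 5.63, 6.19, 7.32 and 5.29 RPKM in control libraries. Like INSR it was lower than the control library of equal number in 5 of 5 pairs, with ranges that overlapped. Relative to the median gene the change was -0.31 on the log2 scale (SE 0.15, limma adjusted p = 0.468), and on RPM -0.28 (adjusted p = 0.0557).

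IRS1 (ENSG00000169047.4, chromosome 2, 227599757 to 227664475, minus strand), the other main docking protein, was at 8.52, 6.82, 6.98, 7.11 and 5.87 RPKM in SRp55 siRNA libraries, against 9.71, 6.22, 7.05, 6.92 and 5.45 RPKM in control libraries. The groups lay over each other, both with library 1 highest and library 5 lowest. The relative log2 fold change was -0.10 with a 95% interval of -0.42 to 0.23 (limma adjusted p = 0.970), and ENST00000305123.4 held nearly all of its RPKM.

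The 3 tested genes whose profile over the 10 libraries was closest to that of INSR were GATAD2B, CACNA1D and SUPT6H. Likeness was the root mean square difference of log2(RPKM + 0.5), each gene centred on its own mean, and came to 0.0549, 0.0709 and 0.0729, against a median of 0.316 over all tested genes. For IRS2 they were MAPKAPK2, MAGEL2 and GFM1, at 0.0755, 0.0852 and 0.0861, against a median of 0.317. None of the 6 genes was called by limma on RPKM. They were picked as the closest to genes not called by that test, over profiles that include the group difference. Their small differences and their lack of a call follow largely from that choice.

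PIK3R1 (ENSG00000145675.10, chromosome 5, 67511548 to 67597649, plus strand) encodes the regulatory subunit that holds PI 3-kinase at the receptor complex. It was at 14.6, 22.1, 19.2, 15.8 and 15.3 RPKM in SRp55 siRNA libraries, against 16.0, 18.5, 13.8, 17.1 and 9.53 RPKM in control libraries. The groups overlapped, with control library 5 below all others. Relative to the median gene the change was 0.12 on the log2 scale (SE 0.18, limma adjusted p = 0.511). In RPM PIK3R1 was higher in 5 of 5 pairs of equal number, with a relative log2 fold change of 0.21 (adjusted p = 0.240).

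PIK3R1 makes a long protein, p85 alpha, and shorter forms, p55 alpha and p50 alpha, that start at internal promoters and lack the amino-terminal part. The annotated long form has 724 codons in ENST00000521381.1 and ENST00000521657.1, and the annotated shorter ones have 361 to 454 codons. The long form held 96.7%, 88.9%, 88.9%, 91.8% and 90.0% of their RPKM in SRp55 siRNA libraries, against 85.9%, 83.7%, 86.2%, 86.3% and 92.0% in control libraries. The models of the p85 alpha form held most of this RPKM throughout. Control library 5 lay within the range of the SRp55 siRNA libraries. The shorter models end at 67594411 or 67594584, while ENST00000521381.1 runs to 67597649. Reads from the stretch beyond the shorter models could therefore be credited to the long form alone. The shares describe the models of the files and are no measure of the forms in molecules. The means were 91.3% ± 3.26 in SRp55 siRNA libraries and 86.8% ± 3.10 in control libraries (SD, n = 5 each), a difference of 4.45 percentage points (SE 2.01, exact two-sided permutation p = 0.0635).

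That difference depended on which models were counted. A pair of transcripts with no entry in GENCODE 44, ENST00000274335.5 and ENST00000396611.1, start upstream of the annotated shorter forms. They run to 67597647, about where ENST00000521381.1 ends. With them counted as long, a choice made after the data were seen, the long form held 92.5% to 96.7% in SRp55 siRNA libraries and 86.7% to 92.3% in control libraries, a difference of 5.01 points (exact permutation p = 0.00794, the smallest possible). Without control library 5 the annotated share differed by 5.75 points (exact permutation p = 0.00794), and without any other single library by 3.10 to 5.05 points (exact permutation p = 0.0556 to 0.135). With only the most abundant transcript of each form the long share was 84.0% ± 15.3 in SRp55 siRNA libraries and 80.2% ± 17.8 in control libraries (SD, n = 5 each, exact permutation p = 0.714). On estimated reads from all libraries it differed by 2.07 points (exact permutation p = 0.214). The reads were divided unevenly among these models: ENST00000274335.5 was at 0, 6.82, 6.34, 2.75 and 2.43 RPKM in SRp55 siRNA libraries, against 0.451, 0, 0, 3.11 and 0 RPKM in control libraries. ENST00000521381.1 was between 1.24 and 11.8 RPKM in SRp55 siRNA libraries and between 1.05 and 9.96 RPKM in control libraries. Single PIK3R1 models therefore varied between libraries of a group by far more than the gene did, and the usage test did not call the gene (limma adjusted p = 0.753).

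PIK3CA (ENSG00000121879.3, chromosome 3, 178865902 to 178957881, plus strand), the catalytic subunit p110 alpha, was at 8.36, 11.2, 9.44, 9.87 and 4.26 RPKM in SRp55 siRNA libraries, against 11.6, 4.54, 7.32, 6.31 and 8.85 RPKM in control libraries. The lowest and the highest libraries belonged to different groups and the groups overlapped. The relative log2 fold change was 0.04 with a 95% interval of -0.57 to 0.65 (limma adjusted p = 0.797). The full-length model ENST00000263967.3 was steadier, at 2.43 ± 0.358 RPKM in SRp55 siRNA libraries and 2.55 ± 0.293 RPKM in control libraries (SD, n = 5 each). Models under 1000 bases held 69.6% ± 9.75 of the RPKM in SRp55 siRNA libraries and 62.8% ± 16.6 in control libraries, but 14.4% of the reads over all libraries. PIK3CA overlaps KCNMB3 on the opposite strand, which averaged 2.14 RPKM, and whether strand was used in counting is not given in the sources used here.

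AKT2 (ENSG00000105221.12, chromosome 19, 40736224 to 40791443, minus strand) encodes the AKT kinase that mediates glucose uptake in insulin's target tissues. It was at 31.8, 29.2, 20.4, 30.0 and 34.7 RPKM in SRp55 siRNA libraries, against 22.5, 16.8, 17.6, 23.9 and 19.9 RPKM in control libraries. Each SRp55 siRNA library lay above the control library of equal number, in 5 of 5 pairs, and SRp55 siRNA library 3 alone fell within the control range. The means were 29.2 ± 5.37 RPKM in SRp55 siRNA libraries and 20.2 ± 3.05 RPKM in control libraries (SD, n = 5 each), a relative log2 fold change of 0.41 (SE 0.16, limma adjusted p = 0.0849). AKT2 was called in 2 of 17 alternative settings, with the preparation as a block (adjusted p = 0.0357) and without SRp55 siRNA library 3 (0.0391). The adjusted p was 0.131 with median-of-ratios scaling and 0.0547 to 0.188 without any other single library.

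The higher AKT2 sum lay in 2 short transcripts and not in the full-length coding model. ENST00000496089.2, annotated as retained intron and 982 bases long (40739662 to 40743973), was at 12.8, 7.86, 0.513, 2.39 and 6.48 RPKM in SRp55 siRNA libraries, against 1.45, 0.402, 1.95, 1.14 and 1.71 RPKM in control libraries. ENST00000489375.1, annotated as a target of nonsense-mediated decay and 734 bases long (40739575 to 40741938), was at 0.437, 0.511, 0.503, 7.49 and 9.62 RPKM in SRp55 siRNA libraries, against 0.366, 0.380, 0.277, 0.376 and 0.202 RPKM in control libraries. Which of the short transcripts was high differed between preparations: the first stood highest in libraries 1, 2 and 5, the second in libraries 4 and 5, and library 3 had little of either. The groups of ENST00000489375.1 did not overlap, while those of ENST00000496089.2 did. For ENST00000489375.1, SRp55 siRNA libraries 1 to 3 lay at 0.437 to 0.511 RPKM, little above the highest control at 0.380 RPKM, and all these values are low. Neither was called at the transcript level (limma adjusted p = 0.562 and 0.577). The full-length coding transcript ENST00000392038.2, 5300 bases long, was at 2.26, 2.57, 2.70, 3.44 and 3.04 RPKM in SRp55 siRNA libraries, against 2.63, 2.90, 2.37, 3.85 and 1.92 RPKM in control libraries.

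**Figure D3:**
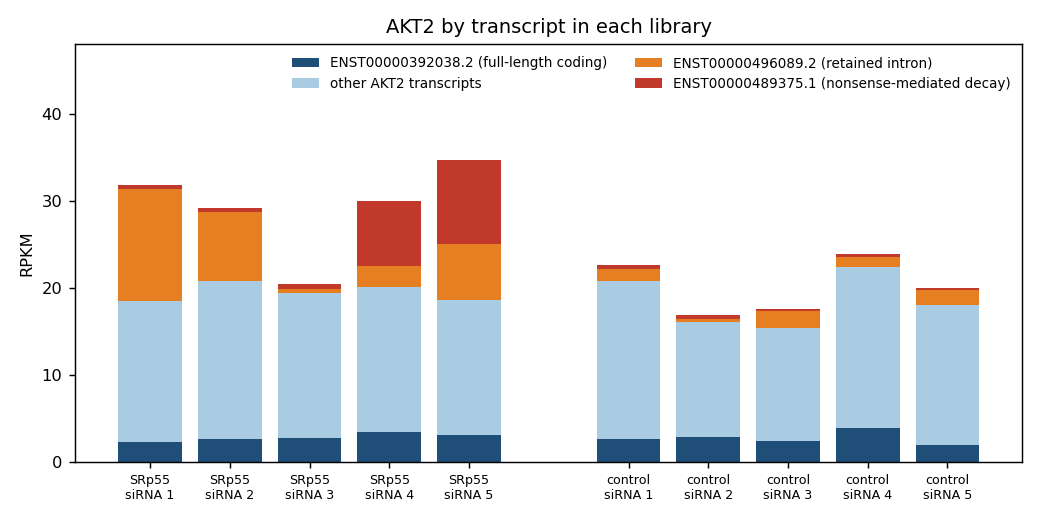
AKT2 RPKM in each of the 5 SRp55 siRNA libraries (left) and 5 control siRNA libraries (right), stacked by transcript: the full-length coding model, the retained-intron and nonsense-mediated-decay transcripts with the largest excess in mean RPKM, and all others. The stack without those short transcripts averages 19.5 and 18.5 RPKM in SRp55 siRNA and control libraries.

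Without these short transcripts, a choice made after the data were seen, AKT2 summed to 19.5 ± 0.982 RPKM in SRp55 siRNA libraries and 18.5 ± 3.00 RPKM in control libraries (SD, n = 5 each), with a relative log2 fold change of -0.024 (limma adjusted p = 0.720). The transcripts left out were those with the largest excess in these same libraries. Leaving them out lowers the difference by construction, so this p is no test of the rest of the gene. On RPM, where a short transcript weighs less, the whole gene had a relative log2 fold change of 0.17 (adjusted p = 0.345). Models under 1000 bases held 65.7% ± 8.11 of the gene's RPKM in SRp55 siRNA libraries and 50.4% ± 3.45 in control libraries (SD, n = 5 each), and 23.4% of its reads over all libraries. The usage test gave AKT2 a largest shift of 12.6 percentage points in ENST00000496089.2 and an adjusted p of 0.71.

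AKT1 (ENSG00000142208.11, chromosome 14, 105235686 to 105262088, minus strand), the most widely expressed AKT kinase, was at 107, 88.2, 82.8, 93.2 and 92.6 RPKM in SRp55 siRNA libraries, against 91.0, 87.2, 78.0, 107 and 85.1 RPKM in control libraries. The groups overlapped over nearly their whole ranges. The relative log2 fold change was -0.06 with a 95% interval of -0.31 to 0.20 (limma adjusted p = 0.831). The coding transcript ENST00000407796.2 held 75.1% ± 1.85 of the RPKM in SRp55 siRNA libraries and 74.8% ± 5.84 in control libraries (SD, n = 5 each).

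FOXO1 (ENSG00000150907.6, chromosome 13, 41129804 to 41240734, minus strand), which in beta cells links insulin signalling to PDX1 and to cell growth, was at 15.2, 16.8, 16.3, 14.2 and 16.3 RPKM in SRp55 siRNA libraries, against 13.5, 13.3, 13.8, 13.2 and 13.7 RPKM in control libraries. In RPKM as deposited FOXO1 was the 1 member whose groups did not overlap, with every SRp55 siRNA library above every control. Of all tested genes 5.61% were higher without overlap and 2.32% lower. In RPM the FOXO1 groups overlapped, at 90.0 to 121 in SRp55 siRNA libraries and 82.3 to 106 in control libraries (limma adjusted p = 0.366). The log2 fold change was 0.22 as deposited (SE 0.09) and 0.11 relative to the median gene, with a limma adjusted p of 0.171. With median-of-ratios scaling the adjusted p was 0.627. Its coding transcript ENST00000379561.5 held nearly all of the RPKM.

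Across the 111 transcripts of the 9 genes, 44 passed the filter and none was called, against 0.083% of all 57818 transcripts tested. At an unadjusted p under 0.05 limma listed 2 of the 44, ENST00000379561.5 of FOXO1 and ENST00000274335.5 of PIK3R1, against 9% of all transcripts. Groups did not overlap for 2, both higher, ENST00000379561.5 of FOXO1 and ENST00000489375.1 of AKT2, where 1.95% of all transcripts tested were higher without overlap and 1.09% lower. Transcript usage could be tested in 5 of the 9 genes, AKT2, PIK3CA, IGF1R, PIK3R1 and INSR, and none was called or had an unadjusted p under 0.05, against 0.282% of all 9919 genes called and 8.04% with such a p. None of the 5 was called on RPM or with the preparation as a block.

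**Figure D4:**
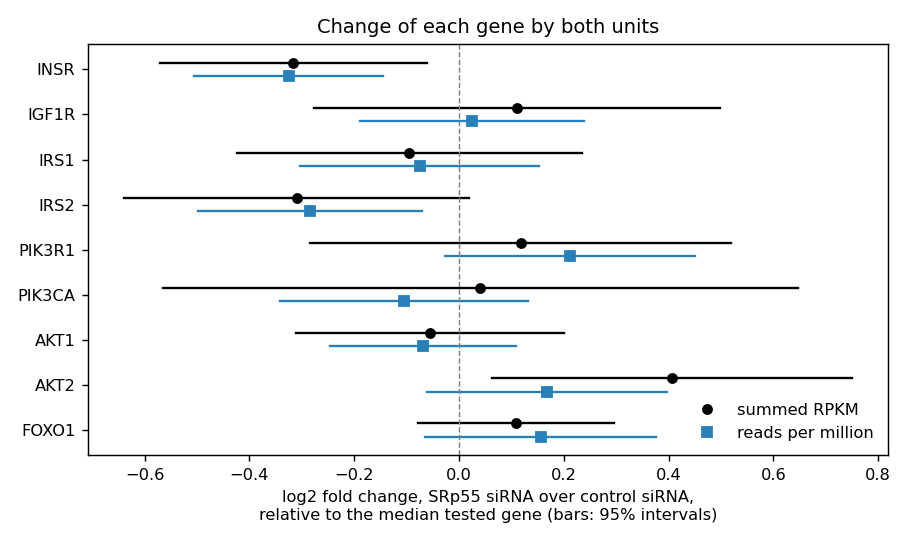
Log2 fold change of each gene, SRp55 siRNA over control siRNA and relative to the median tested gene, from summed RPKM (circles) and from RPM (squares), with unadjusted 95% intervals. INSR lies at -0.32 and -0.33 by the 2 units, while AKT2 lies at 0.41 by RPKM and 0.17 by reads.

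The rest of the pathway was read from lists of 76 further genes by role. Of these, 74 were matched and 64 passed the filter, of which limma called 5 higher and 1 lower and left 58 uncalled, beside 3.76% of all tested genes called higher and 1.25% called lower. On RPM 8 of the 64 were called higher and 6 lower, beside 7.3% and 9.87% of all tested genes. With median-of-ratios scaling 4 were called higher and 2 lower, beside 3.02% and 3.72%. With the preparation as a block 9 were called higher and 2 lower, beside 9.39% and 3.7%. The median relative log2 fold change of the 64 was 0.03, and 34 of them lay above the median gene. An unadjusted limma p under 0.05 was found for 15 of the 64, beside 21.9% of all tested genes. That share also belongs beside such counts by role below.

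Among 8 tested ligands and binding proteins 1 rose. IGFBP5, a secreted protein that binds insulin-like growth factors, was at 62.8, 54.5, 61.2, 68.8 and 59.0 RPKM in SRp55 siRNA libraries, against 26.0, 25.9, 28.2, 36.7 and 27.3 RPKM in control libraries. Every SRp55 siRNA library lay far above every control, with a relative log2 fold change of 0.97 (SE 0.12, limma adjusted p = 0.00205). IGFBP4, another such binding protein, averaged 9.07 ± 1.14 RPKM in SRp55 siRNA libraries and 12.1 ± 1.92 RPKM in control libraries (SD, n = 5 each). It was lower in 5 of 5 pairs of equal number. Its relative log2 fold change was -0.50 (limma adjusted p = 0.124), and it was called lower with median-of-ratios scaling (adjusted p = 0.0464), on RPM (0.0188) and with the preparation as a block (0.0301); it was named after its values were seen. IGF2, a ligand of both receptors, averaged 403 ± 59.1 RPKM in SRp55 siRNA libraries and 295 ± 32.6 RPKM in control libraries (SD, n = 5 each), with groups that did not overlap and an adjusted p of 0.0828. INS averaged 9520 ± 1414 RPKM in SRp55 siRNA libraries and 6597 ± 3464 RPKM in control libraries (SD, n = 5 each, limma adjusted p = 0.202), with 12705 RPKM in control library 4 and at most 5839 RPKM in the other control libraries. Without control library 4 INS was called higher, with a relative log2 fold change of 0.75 against 0.53 with it (limma adjusted p = 0.00948).

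None of 13 tested receptors and proximal adaptors was called by limma on RPKM, and 1 had an unadjusted p under 0.05. The smallest adjusted p-values were those of SOCS1, which restrains signalling by targeting IRS proteins (relative log2 fold change 0.36, limma adjusted p = 0.0620), GRB2, the adaptor to the RAS pathway (0.21, adjusted p = 0.229), and IGF2R, which clears IGF2 (0.23, adjusted p = 0.255). SOCS1 averaged 1.07 ± 0.244 RPKM in SRp55 siRNA libraries and 0.62 ± 0.13 RPKM in control libraries (SD, n = 5 each), and was called by median-of-ratios scaling (adjusted p = 0.0409), by RPM (adjusted p = 0.0121) and with the preparation as a block (adjusted p = 0.0165).

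None of 6 further PI 3-kinase subunits and lipid phosphatases was called by limma on RPKM, and 1 had an unadjusted p under 0.05. PIK3R3, another regulatory subunit, had a relative log2 fold change of -0.35 (adjusted p = 0.274) and PIK3CB, the p110 beta subunit, one of 0.05 (adjusted p = 0.660). On RPM PIK3R3 was called lower (adjusted p = 0.00470).

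None of 5 tested AKT regulators and relatives was called by limma on RPKM, on RPM or with the preparation as a block, and 0 had an unadjusted p under 0.05. The smallest adjusted p-values belonged to the phosphatases PHLPP1 (relative log2 fold change 0.15, limma adjusted p = 0.391) and PHLPP2 (0.03, adjusted p = 0.451).

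Of 16 tested TSC and mTOR genes 2 rose. TBC1D7, a subunit of the TSC complex, was at 22.7, 23.4, 22.5, 19.7 and 13.6 RPKM in SRp55 siRNA libraries, against 11.3, 14.4, 11.6, 15.5 and 11.2 RPKM in control libraries, a relative log2 fold change of 0.53 (SE 0.16, limma adjusted p = 0.0486). SRp55 siRNA library 5 lay within the control range. TBC1D7 overlaps PHACTR1 on the opposite strand, which averaged 6.33 RPKM, and ENSG00000272379 on the same strand, which averaged 1.56 RPKM. EIF4EBP2, a repressor of cap-dependent translation that mTOR inactivates, was at 57.5, 53.8, 54.3, 56.2 and 49.1 RPKM in SRp55 siRNA libraries, against 43.6, 40.9, 42.5, 42.5 and 37.6 RPKM in control libraries. Its groups did not overlap, with a relative log2 fold change of 0.28 (SE 0.09, adjusted p = 0.0392).

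Of 8 other tested AKT substrates 1 rose and 1 fell. TBC1D1, a Rab GTPase-activating protein, was at 47.3, 41.1, 40.9, 43.5 and 40.2 RPKM in SRp55 siRNA libraries, against 28.6, 22.2, 25.6, 38.3 and 25.5 RPKM in control libraries. The groups did not overlap, with a relative log2 fold change of 0.51 (SE 0.14, limma adjusted p = 0.0330). FOXO4, a relative of FOXO1, was at 0.847, 0.843, 1.13, 1.43 and 1.39 RPKM in SRp55 siRNA libraries, against 4.03, 1.93, 3.02, 5.40 and 2.56 RPKM in control libraries. Every SRp55 siRNA library lay below every control, with a relative log2 fold change of -1.31 (SE 0.23, limma adjusted p = 0.0159). The coding transcript ENST00000374259 alone, an alternative chosen after the data were seen, averaged 0.890 ± 0.330 RPKM in SRp55 siRNA libraries and 1.56 ± 0.220 RPKM in control libraries (SD, n = 5 each), with a relative log2 fold change of -0.70 (adjusted p = 0.0711).

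Of 8 tested FOXO targets 1 rose. SESN3, a sestrin that FOXO factors induce, was at 49.8, 45.6, 45.9, 33.7 and 34.5 RPKM in SRp55 siRNA libraries, against 28.1, 27.6, 34.7, 24.9 and 25.2 RPKM in control libraries, a relative log2 fold change of 0.45 (SE 0.14, limma adjusted p = 0.0479). SRp55 siRNA libraries 4 and 5 reached into the control range, which control library 3 bounded. Of the 6 called genes IGFBP5 and FOXO4 were called in all 10 fits that left out 1 library, whereas TBC1D7, EIF4EBP2 and TBC1D1 were called in 2 of 10 and SESN3 in 1 of 10. With median-of-ratios scaling EIF4EBP2 and SESN3 were not called (adjusted p = 0.0659 and 0.0924).

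**Figure D5:**
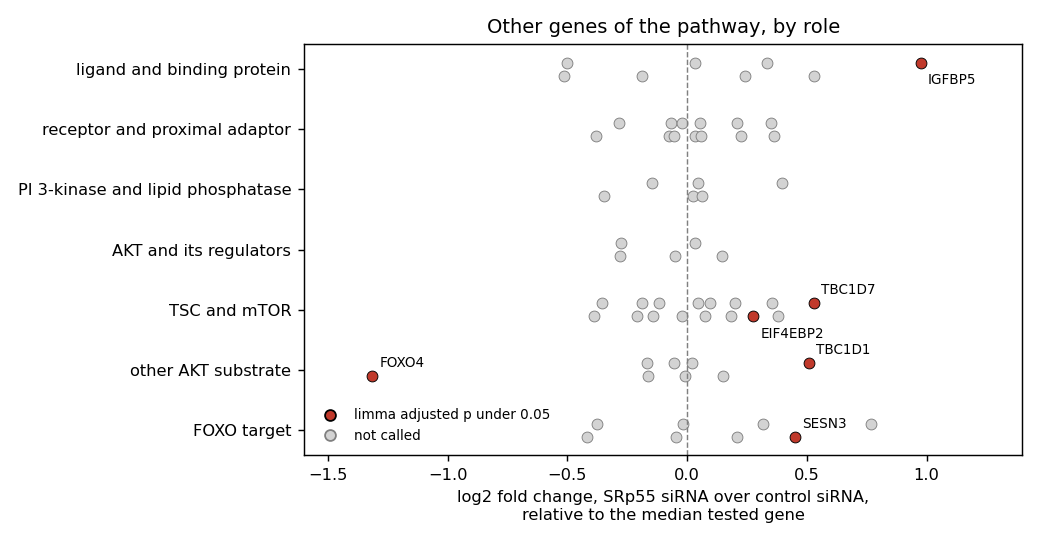
Log2 fold change, SRp55 siRNA over control siRNA and relative to the median tested gene (dashed line), of 64 other genes of the pathway in 7 roles. The 6 genes with a limma adjusted p under 0.05 are filled and named, with IGFBP5 at 0.97 and FOXO4 at -1.31.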

How the data were processed

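PolyA RNA from 5 SRp55 siRNA and 5 control siRNA preparations of EndoC-βH1 cells was aligned with TopHat to GRCh37 (hg19), per the submitters' processing notes. How reads were assigned to transcripts, from which annotation release, and whether strand was used is not given in the sources used here. In the deposited files the authors list, for each transcript in 1 text field, an estimated number of reads and an RPKM value. RPKM there is scaled to a total above the reads assigned to transcripts; assigned reads made up 87.0% ± 7.24 of it in SRp55 siRNA libraries and 82.1% ± 6.82 in control libraries (SD, n = 5 each). As both values share a text field, the route for RPKM was used and no count model was fitted.

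Transcript values were summed per gene, and genes averaging 0.5 RPKM or more were tested with limma 3.58.1 (R 4.3.3, trend and robust options) on log2(RPKM + 0.5), which understates changes of low genes. Estimated reads per M assigned reads (RPM) were an alternative. Usage, a transcript's percent of its gene's RPKM, was tested with limma's diffSplice on transcripts averaging 0.5 RPKM or more and 5% usage or more. A usage call needed an adjusted p under 0.05 together with 10 or more percentage points of shift. Shares of forms were compared by exact permutation of the 10 library values. On simulated data the gene test recovered changed genes, while the usage test also called unchanged genes more often than its threshold allows.

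Symbols, biotypes and coding lengths came from GENCODE 44, matched by Ensembl ID for 95.0% of genes and 92.4% of transcripts. The files list transcripts without exon rows, so INSR exon 11 was found from GENCODE 44 exons. The members and lists were chosen with earlier results of these data known. Named were all members, their transcripts by abundance, called pathway genes or otherwise the 3 with the smallest adjusted p of a role, SRSF6, INS, and the 3 genes closest to INSR and IRS2; some genes under this rule are not reported here. Libraries of equal number were treated as pairs in an alternative fit, since their deviations from group means correlated at 0.13 to 0.41 over tested genes, against at most 0.12 for different numbers. The labels do not state this pairing, which was taken from these same data. Intervals and SDs cover the spread between these preparations.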

Additional observations from a re-analysis of the deposited data

Results flagged for a closer look

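Of 38 groups of 5 values tested, Dixon's criterion set 1 library apart from the rest in 3, where chance sets apart about 1 group in 20. IGFBP5 was at 36.7 RPKM in control library 4, against 25.9 to 28.2 RPKM in the other control libraries. INS was at 12705 RPKM in control library 4, against 4237 to 5839 RPKM in the other control libraries. SRSF6 was at 92.4 RPKM in control library 3, against 99.5 to 100.0 RPKM in the other control libraries.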

How the results depend on the processing

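Of 154 values of the 9 genes under alternative settings, 142 kept their direction and their side of the threshold, 3 became called and 9 changed sign. On RPM 2340 genes were called in place of 684, and 1 member, INSR (-0.33, limma adjusted p = 0.0153), PIK3CA stood at -0.11, and 48 genes were called for usage in place of 28. With the preparation pairs as a block 1784 genes were called and 1 member, AKT2 (0.41, adjusted p = 0.0357); paired exact permutation gave p = 0.5 for the INSR long share and 0.125 for the PIK3R1 long share (smallest possible 0.0625). The block changed no other call among the members, and its count of other pathway genes stands above. Without a filter AKT1 stood at 0.019. Median-of-ratios scaling moved the split of calls to 412 higher and 507 lower, against 513 and 171 as deposited, and the shift of the median gene to 0.01, against 0.11. Without ENST00000489375 and ENST00000496089 AKT2 stood at -0.024, and with 2 more long transcripts the PIK3R1 share differed by 5.01 points. Both choices were made after the data were seen, and the cause of these differences was not tested. With 1 library left out, called genes numbered 259 (without control library 2) to 1085 (without control library 4), called members 0 to 1, called usage genes 14 to 46 and called usage members 0. The relative log2 fold changes then ranged from -0.38 to -0.29 for INSR, -0.050 to 0.22 for IGF1R, -0.14 to -0.0057 for IRS1, -0.36 to -0.24 for IRS2, 0.0034 to 0.21 for PIK3R1, -0.11 to 0.22 for PIK3CA, -0.10 to -0.02 for AKT1, 0.30 to 0.53 for AKT2 and 0.05 to 0.16 for FOXO1. The long share then differed by 0.607 to 3.71 points for INSR and 3.10 to 5.75 points for PIK3R1. The same settings were counted for IGFBP5, FOXO4, TBC1D7, EIF4EBP2, TBC1D1, SESN3, SRSF6 and INS. Of their 137 values, 38 lost their call, 1 became called (INS without control library 4, 0.75, limma adjusted p = 0.00948) and none changed sign. Other pathway genes named above, such as IGFBP4 and SOCS1, are not in this count. Short models with few reads and 5 libraries a group limit what could be detected in transcripts.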
